A study of Homo sapiens with 6 samples.

Results

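The intermicrovillar adhesion complex and the apical PDZ scaffolds were followed as 10 named genes in RNA-seq libraries of SW480, a long-established line of human colorectal carcinoma cells. The genes were taken by symbol from the table of FPKM values (fragments scaled to transcript length and library total), in which each of the 10 stood on 1 row among 59332 distinct names. Of these, 6 encode parts of the adhesion complex (USH1C, CDHR2, CDHR5, MYO7B, ANKS4B and CALML4) and 4 encode scaffolds of the NHERF family (SLC9A3R1, SLC9A3R2, PDZK1 and PDZD3). The control group was 3 libraries of SW480 titled lenti, and the other group 3 libraries titled lenti-HNF4a, whose genotype is given as overexpressing HNF4a. Both groups were grown in RPMI1640 with serum and antibiotics, and the labels describe 3 biological replicates in each. The labels do not state the promoter of the construct, the HNF4A isoform, or whether the cells were a pool or 1 clone.

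HNF4A, a transcription factor of the nuclear receptor family, drives gene programmes of liver, gut and kidney epithelium. At the tips of intestinal microvilli the protocadherins CDHR2 and CDHR5 bind each other across neighbouring microvilli, and inside the cell a complex of the scaffold harmonin (USH1C), the ankyrin repeat protein ANKS4B, the motor myosin-7b (MYO7B) and its calmodulin-like light chain CALML4 holds their tails. This adhesion packs microvilli into the ordered brush border of the enterocyte. The NHERF scaffolds carry several PDZ domains each, which hold transporters and channels in the apical membrane, and the first pair of them also binds ezrin and through it the actin cytoskeleton.

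With HNF4A overexpressed, 3 of the 10 genes rose: the scaffold genes USH1C, by 4.21-fold, PDZK1, by 9.27-fold, and SLC9A3R1, by 1.201-fold. None fell. The SLC9A3R1 call was lost in 7 of 15 other settings, which left 2 genes higher. Of the other 7, CALML4 and SLC9A3R2 were expressed and did not pass the test, CDHR2, CDHR5, MYO7B and PDZD3 were listed under the expression filter, and ANKS4B was listed at 0 in all 6 libraries. The genes for the adhesion molecules themselves, CDHR2 and CDHR5, stayed under 0.5 FPKM in all 6 libraries. Tests used limma on log2(FPKM + 1) over the 14106 genes that reached 1 FPKM in at least 3 libraries, with Benjamini-Hochberg adjustment and a threshold of 0.05. On that rule 3.4 percent of all tested genes were called higher and 1.39 percent lower, against 3 and 0 of the 10 genes here. Of these 10, 5 were tested. At an unadjusted p under 0.05 the same limma fit also gave 3 higher and 0 lower among the 10, against 10.8 percent and 7.29 percent of all tested genes. The 10 genes and the lists below were chosen with earlier results of these data known. Such comparisons with all genes therefore describe them and test nothing. PDZK1 met the expression filter only through the HNF4A libraries, so its being tested already required a difference between the groups.

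HNF4A was measured at 6.57 to 8.81 FPKM in the control libraries and at 720.6 to 1143 FPKM in the overexpression libraries (limma log2 change 6.70, SE 0.16, adjusted p = 9.94e-07), so each library matched its label. Its paralogue HNF4G was listed at 0 in 5 libraries and at 0.00731 FPKM in the other. The summed FPKM of the libraries ran from 615490 to 652780, and 13882 to 14189 genes per library reached 1 FPKM. FPKM holds no fragment counts. From the commonest ratio of the smallest values in each pair of libraries, relative depth was 0.868 to 1.24 times that of control replicate 1. In bulk RNA, more cells expressing a gene and more RNA per cell cannot be told apart.

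Promoter windows of the 3 genes that rose are printed because these are the members called higher, and because HNF4 proteins are known to bind the sequence CAAAGTCCA. For PDZK1, only the window of the downstream of its annotated starts is printed. Sequences are from RefSeq on GRCh38.p14, cover 250 bases before to 50 after an annotated start, and read 5′ to 3′ on the strand of the gene. Capitals mark CAAAGTCCA in the PDZK1 window, and in the others the shorter core CAAAG where it occurs. The PDZK1 window lies at chr1:145707319-145707618 on the minus strand, the USH1C windows at chr11:17544367-17544666 and, for a second start further downstream, chr11:17533836-17534135, both on the minus strand, and the SLC9A3R1 window at chr17:74748378-74748677 on the plus strand.
PDZK1: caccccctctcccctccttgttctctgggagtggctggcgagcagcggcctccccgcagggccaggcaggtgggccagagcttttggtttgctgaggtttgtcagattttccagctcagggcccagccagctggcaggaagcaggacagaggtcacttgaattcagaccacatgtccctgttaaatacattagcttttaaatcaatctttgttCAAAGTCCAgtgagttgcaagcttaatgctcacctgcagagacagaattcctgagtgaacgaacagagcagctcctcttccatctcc
USH1C, upstream start: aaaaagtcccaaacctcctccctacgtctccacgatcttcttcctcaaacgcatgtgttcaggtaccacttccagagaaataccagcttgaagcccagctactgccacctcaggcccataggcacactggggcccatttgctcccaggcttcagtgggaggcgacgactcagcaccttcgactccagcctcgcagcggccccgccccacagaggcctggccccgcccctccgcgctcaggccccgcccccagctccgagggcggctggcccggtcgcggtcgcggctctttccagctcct
USH1C, downstream start: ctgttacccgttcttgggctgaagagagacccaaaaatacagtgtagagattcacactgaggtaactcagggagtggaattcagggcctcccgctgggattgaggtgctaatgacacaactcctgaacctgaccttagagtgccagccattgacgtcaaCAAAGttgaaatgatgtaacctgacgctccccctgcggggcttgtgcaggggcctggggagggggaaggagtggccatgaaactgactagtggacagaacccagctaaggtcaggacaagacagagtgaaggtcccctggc
SLC9A3R1: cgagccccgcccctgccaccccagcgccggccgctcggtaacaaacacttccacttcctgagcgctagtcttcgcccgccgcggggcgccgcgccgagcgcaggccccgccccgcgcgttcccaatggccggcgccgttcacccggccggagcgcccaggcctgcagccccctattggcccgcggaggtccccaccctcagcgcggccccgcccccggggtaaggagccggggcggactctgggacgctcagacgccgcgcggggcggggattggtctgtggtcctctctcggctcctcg

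The printed PDZK1 window held CAAAGTCCA once, 37 to 29 bases before the start at position 145707368. Relative to the other PDZK1 start, at position 145707400, the same match began 5 bases before the start and ran past it. The place of the match thus depends on the start used. Read on both strands (CAAAGTCCA or TGGACTTTG), this 9-base sequence occurred in 135 of 35116 RefSeq promoter windows of the same length, or 0.384 percent. A looser form, CAAAGTNCA, which includes the first, occurred in 1.1 percent of windows. Among the 12 windows matched for 8 of the 10 genes, both forms were found only in the 2 overlapping PDZK1 windows. The core CAAAG, contained in both longer forms, was in 9 of the 12 windows and in 47.5 percent of all windows. It was present at the downstream USH1C start and absent from the upstream one and from the SLC9A3R1 window. A match of letters is a description of the window and does not show binding.

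USH1C encodes harmonin, the PDZ scaffold at the centre of the adhesion complex. It lies on chromosome 11 from 17493895 to 17544416 on the minus strand (GENCODE 29, GRCh38), with no other annotated gene overlapping it. Its transcript stood at 4.48, 3.31 and 4.79 FPKM under control conditions and reached 15.9, 16.0 and 21.1 FPKM when HNF4A was overexpressed. Every overexpression library was more than 3-fold above the highest control library, and the groups did not overlap. Means were 4.19 ± 0.78 and 17.6 ± 3.0002 FPKM (SD, n = 3 each). On the log2 scale USH1C rose by 1.84 (SE 0.14, limma adjusted p = 6.36e-04), and the call held in all 6 leave-one-out fits (adjusted p of 0.00206 to 0.00339).

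CALML4 encodes the calmodulin-like light chain of myosin-7b. Control libraries gave 2.24, 2.95 and 3.11 FPKM for it, against 3.14, 2.9997 and 2.68 FPKM with overexpression. The groups overlapped, and the library with the lowest value was a control. The log2 change was 0.07 with a 95% interval of -0.19 to 0.34 (limma adjusted p = 0.820), an interval that lies wholly below the change of USH1C. The gene, on chromosome 15 from 68190705 to 68206110, shares its strand with the overlapping AC107871.1 and lies opposite PIAS1, so its value may hold fragments of these.

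MYO7B encodes myosin-7b, the motor that brings the complex to the microvillus tip. Control libraries listed it at 0.106, 0.050 and 0.054 FPKM, against 0.187, 0.155 and 0.182 FPKM with overexpression. All 3 overexpression libraries were above all 3 controls, with a ratio of means of 2.49, yet every value stayed below 0.2 FPKM. The gene was under the expression filter, and an exact two-sided permutation test on log2(FPKM + 1) gave p = 0.1, the smallest that 3 against 3 allows. Over all 32006 genes above 0 in any library, where 0.628 percent were called higher and 0.153 percent lower, limma called 2 of the 10 higher (USH1C and PDZK1) and 0 lower. In that fit MYO7B had an unadjusted p of 0.00427 and a limma adjusted p of 0.148, and with a filter of 0.1 FPKM in 3 libraries its adjusted p was 0.369. Across those 32006 genes the groups stood apart with overexpression higher in 9.95 percent, and across the 14106 tested genes in 13.8 percent, against 4 of the 10 genes here (USH1C, PDZK1, SLC9A3R1 and MYO7B). Overexpression was lower without overlap in 0 of the 10, against 6.41 percent of the 32006 and 10.1 percent of the tested genes. AC010976.2 overlaps MYO7B on the opposite strand.

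The protocadherin genes were low in both groups. For CDHR2 the controls gave 0.273, 0.312 and 0.318 FPKM, against 0.119, 0.486 and 0.392 FPKM with overexpression. The overexpression libraries spread on either side of the controls, holding both the lowest and the highest value (exact two-sided permutation p = 1.0). Its binding partner CDHR5 gave 0.121, 0.170 and 0.150 FPKM in the controls, against 0.164, 0.0942 and 0.145 FPKM with overexpression, again with overlapping groups (exact two-sided permutation p = 0.6). In neither gene did the groups separate as they did for USH1C. RF00019 overlaps CDHR2 on its own strand, and other annotated genes, GPRIN1 among them, overlap it on the opposite strand. CDHR5 overlaps no other annotated gene.

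ANKS4B, the ankyrin repeat partner that links harmonin to myosin-7b, was listed at 0 FPKM in all 6 libraries. An FPKM of 0 in a table without counts can be a failed estimate as well as an absent transcript, and these cannot be told apart here. It could not be tested, and no fold is given. The table thus held harmonin and CALML4 transcripts above 2 FPKM, and values under 0.5 FPKM for the 2 protocadherin genes and the motor, in both groups.

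**Figure D1:**
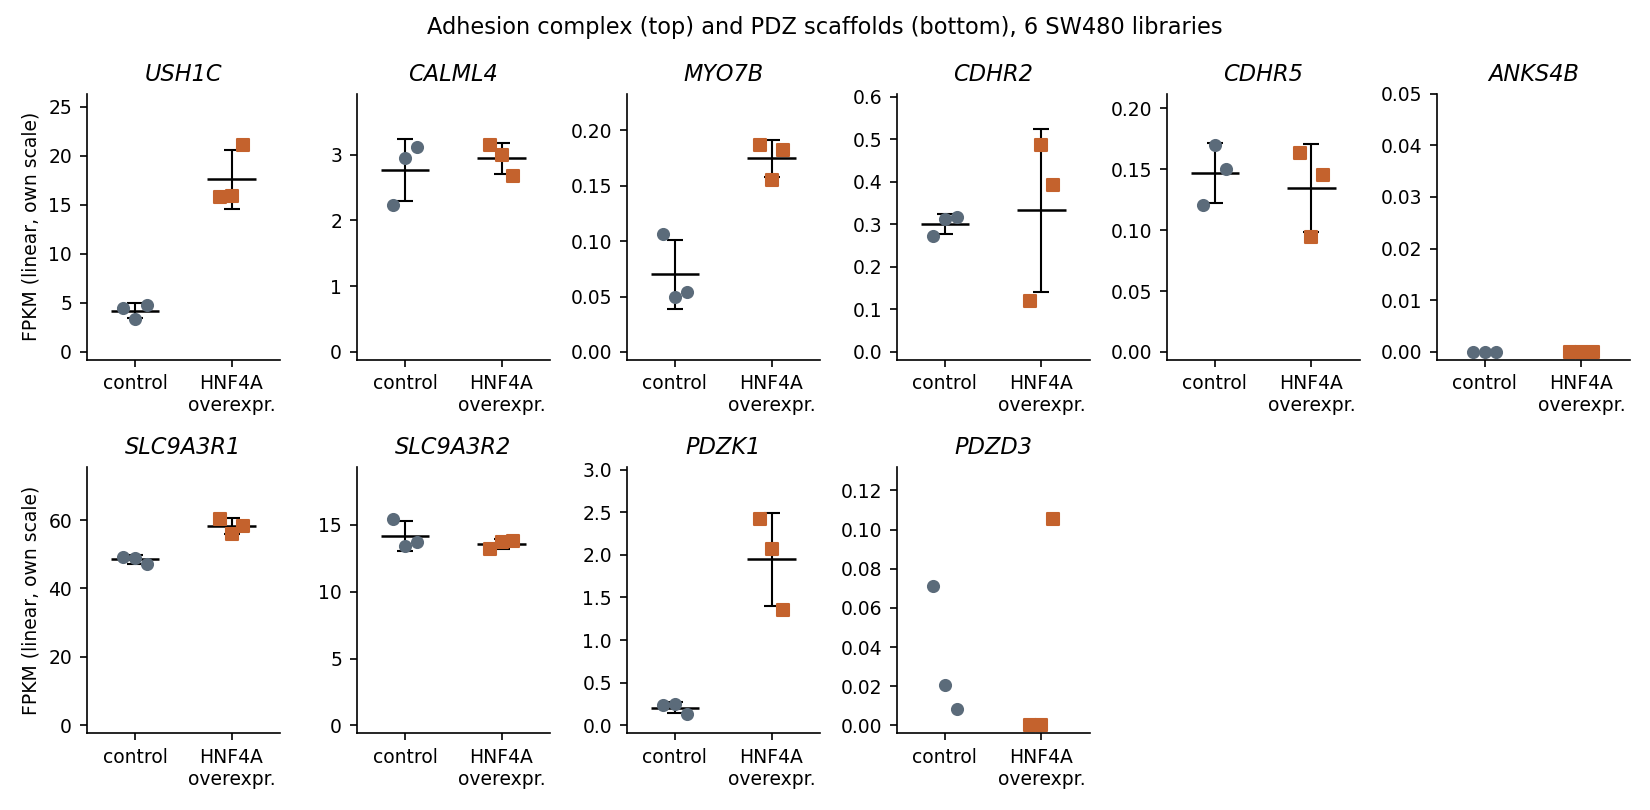
FPKM of each of the 10 genes in the 6 libraries, on a linear axis starting at 0 with its own scale per gene. Circles are control and squares HNF4A overexpression libraries, bars are mean ± SD (n = 3), left out for ANKS4B and PDZD3, which have libraries at 0. USH1C, MYO7B, SLC9A3R1 and PDZK1 show squares wholly above circles, while MYO7B stays below 0.2 FPKM.

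Among the scaffolds, PDZK1 had the largest ratio of group means among the 9 genes with any value above 0. PDZK1 encodes NHERF3, known for holding the HDL receptor SCARB1 in liver and several solute carriers in kidney and gut. Its transcript was low in the controls, at 0.238, 0.255 and 0.136 FPKM, and reached 2.42, 2.06 and 1.348 FPKM with overexpression. The lowest overexpression library was still more than 5-fold above the highest control library. Means were 0.21 ± 0.0645 and 1.95 ± 0.548 FPKM (SD, n = 3 each), and the log2 change on the log2(FPKM + 1) scale, which understates the change of so low a gene, was 1.27 (SE 0.16, limma adjusted p = 0.00362). With a pseudocount of 0.1 the log2 change was 2.71 and with 0.01 it was 3.16, and the call held in all 15 other settings tried (adjusted p of 0.00311 to 0.0433). The gene lies on chromosome 1 from 145670852 to 145708148. Its related pseudogene PDZK1P1, from 147993862 to 148014956 on the same chromosome, was listed at 0.0114 to 0.0685 FPKM in control and 0.0387 to 0.0794 FPKM in overexpression, with overlapping groups.

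SLC9A3R1 encodes NHERF1, also called EBP50, the scaffold that ties apical transporters to ezrin. It was the most abundant of the 10 genes, at 49.3, 49.0 and 47.1 FPKM without added HNF4A and 60.4, 55.9 and 58.4 FPKM with it. The groups did not overlap, and the distance between them was small beside the level. Means were 48.5 ± 1.21 and 58.2 ± 2.24 FPKM (SD, n = 3 each), and the gene rose by 0.26 on the log2 scale (SE 0.05, limma adjusted p = 0.0256). This call rested on the setting. It was kept in a single leave-one-out fit, that without HNF4A overexpression replicate 2 (adjusted p = 0.0446), and lost without any other library (0.0605 to 0.0893), without the expression filter (0.0687) and without the mean-variance trend (0.0647). The direction was the same in every one of these fits. SLC9A3R1, on chromosome 17 from 74748652 to 74769353, is overlapped by MIR3615 on its own strand and by AC016888.1 on the opposite one.

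SLC9A3R2 encodes NHERF2, the closest relative of NHERF1 and likewise an ezrin-binding scaffold. The controls gave 15.5, 13.4 and 13.7 FPKM, against 13.2, 13.7 and 13.8 FPKM with overexpression, and the groups overlapped. The log2 change was -0.06 with a 95% interval of -0.22 to 0.10 (limma adjusted p = 0.7504). The intervals of SLC9A3R1 (0.14 to 0.37) and SLC9A3R2 did not overlap. Within each library the log2 ratio of SLC9A3R1 to SLC9A3R2, which does not depend on the library total, was 1.67, 1.87 and 1.78 in control and 2.197, 2.03 and 2.08 in overexpression. All 3 overexpression libraries had the higher ratio, with a difference of means of 0.33, at the smallest p of an exact two-sided permutation test (p = 0.1).

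The ratio of PDZK1 to SLC9A3R1 moved further. On the log2 scale it was -7.69, -7.58 and -8.44 in control and -4.64, -4.76 and -5.44 in overexpression, a difference of means of 2.96 (exact two-sided permutation p = 0.1). PDZK1 stayed far below SLC9A3R1 in both groups. Of 4 ratios planned, those of CDHR2 to CDHR5 and of USH1C to MYO7B were not computed because 1 of the pair fell under 0.1 FPKM in a library. PDZD3, which encodes NHERF4, a scaffold known to bind the guanylate cyclase receptor GUCY2C, was listed at 0.0713, 0.0207 and 0.00818 FPKM in the controls, against 0, 0 and 0.106 FPKM with overexpression. Its groups overlapped, and 2 of the 3 overexpression libraries were at 0.

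**Figure D2:**
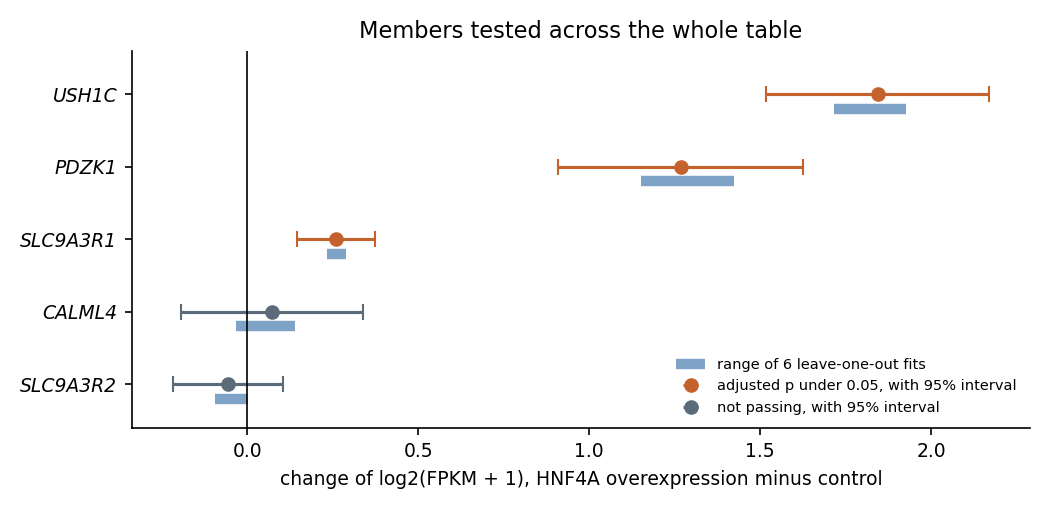
Change of log2(FPKM + 1), HNF4A overexpression minus control, for the 5 genes that passed the expression filter. Points with bars are the limma estimate and its 95% interval, and thick bars the range over the 6 fits that each left out 1 library. USH1C (1.84), PDZK1 (1.27) and SLC9A3R1 (0.26) lie above 0, and the intervals of CALML4 and SLC9A3R2 include 0.

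The order of the levels, compared per length in FPKM, changed at a few places. In control it ran SLC9A3R1, SLC9A3R2, USH1C, CALML4, CDHR2, PDZK1, CDHR5, MYO7B, PDZD3 and ANKS4B. The ranges of PDZK1 and CDHR5, and of MYO7B and PDZD3, overlapped, so these neighbours did not differ beyond their spread. In overexpression USH1C stood above SLC9A3R2 (15.9 to 21.1 against 13.2 to 13.8 FPKM), and PDZK1 above CDHR2. Below PDZK1 the ranges of CDHR2, MYO7B, CDHR5 and PDZD3 overlapped from each gene to the next.

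Added up, the FPKM of the 6 adhesion complex genes were 7.21, 6.79 and 8.42 in control and 19.5, 19.7 and 24.5 in overexpression. USH1C made up 55.9 ± 6.71 percent of this sum in control and 82.9 ± 2.83 percent in overexpression (SD, n = 3 each), and CALML4 37.1 ± 6.21 and 14.1 ± 2.78 percent. CDHR2, CDHR5 and MYO7B together added less than 10 percent in every library. The sum of the 4 scaffolds was 60.9 to 65.1 FPKM in control and 71.7 to 76.0 FPKM in overexpression. SLC9A3R1 was 77.1 ± 1.22 and 78.9 ± 0.792 percent of it, while the share of SLC9A3R2 was 22.5 ± 1.19 and 18.4 ± 0.942 percent and that of PDZK1 0.332 ± 0.0966 and 2.63 ± 0.712 percent. These sums and shares are descriptions, with no test.

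**Figure D3:**
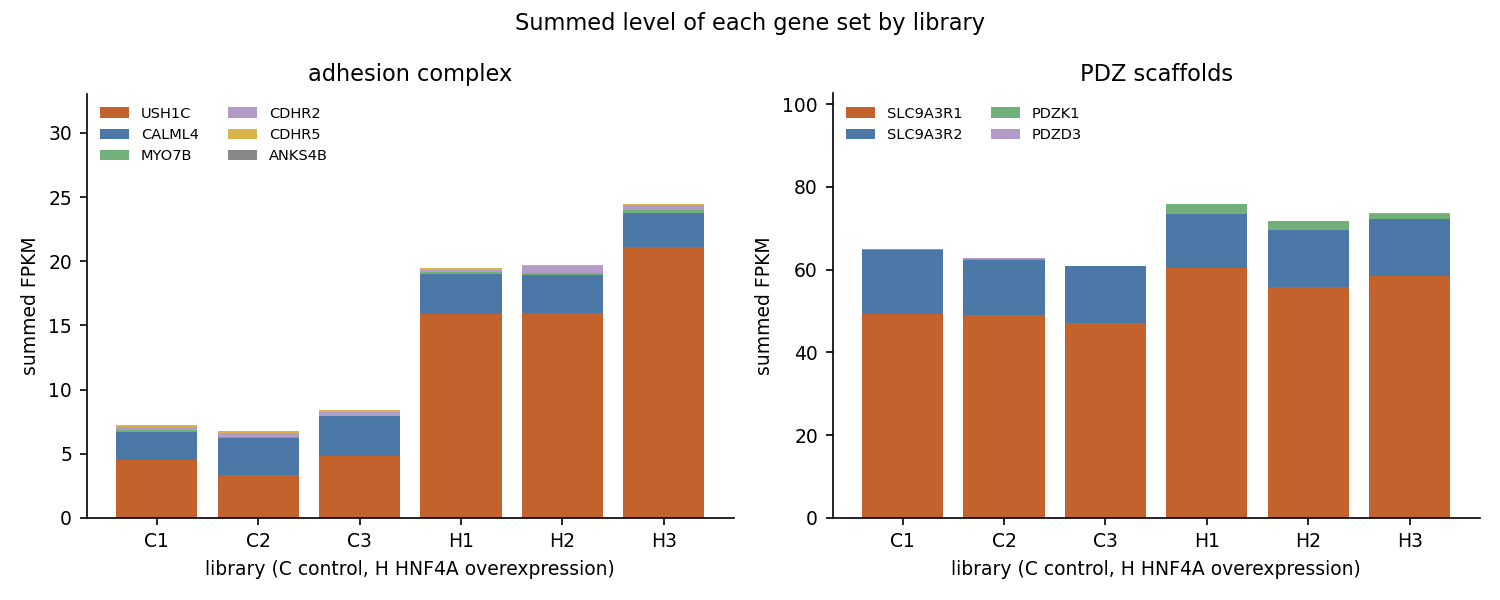
Summed FPKM of the adhesion complex genes (left) and the PDZ scaffold genes (right) in each library, as stacked bars starting at 0, with C for control and H for HNF4A overexpression replicates 1 to 3. The adhesion complex sum goes from at most 8.42 to at least 19.5 FPKM, and nearly all of the difference is the USH1C segment.

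The 5 tested genes whose centred log2(FPKM + 1) profile over the 6 libraries was nearest to that of USH1C by Euclidean distance were PRAP1, AZGP1, SULT2B1, C3 and IL32, at distances of 0.303 to 0.528, against a median of 2.30 over all tested genes. All 5 had groups that did not overlap, with overexpression higher, an outcome largely fixed by choosing them for nearness to USH1C. Among all tested genes 13.8 percent had this pattern. AZGP1 met the filter only through the overexpression libraries. PDZK1 ranked 52 in this order at a distance of 1.08, SLC9A3R1 1116 at 2.00, CALML4 5446 at 2.26 and SLC9A3R2 9291 at 2.36. The measure follows the size of the group difference and says nothing of shared function.

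Genes around the microvillus core were examined as a list of 21. Of these, 19 were tested: 5 rose, 0 fell and the other 14 fell short of the threshold. Of all tested genes 3.4 percent were called higher and 1.39 percent lower. At an unadjusted limma p under 0.05 there were 11 of the 19, against 18.0 percent of all tested genes. The median log2 change of the 19 was 0.14, against 0.01 over all tested genes. EPS8L3, of the EPS8 family of actin regulators at microvillus tips, stood at 25.4, 20.7 and 24.4 FPKM without and 68.8, 58.5 and 57.6 FPKM with overexpression, and VIL1, which encodes the bundling protein villin, at 10.8, 10.6 and 14.9 against 27.2, 34.8 and 34.8 FPKM (limma adjusted p = 5.08e-04 and 0.00182). ESPN, the espin bundler, rose 1.33-fold (adjusted p = 0.00731), CLIC5 1.70-fold (0.0460) and COBL, an actin nucleator, 1.30-fold (0.0169). The CLIC5 call held only when control replicate 3 was the library left out, and that of COBL held in 3 leave-one-out fits and was lost without control replicate 2 or 3 or HNF4A overexpression replicate 1 (0.0582 to 0.0642). EZR, which encodes the ezrin that NHERF1 binds, was at 139.6 ± 6.41 and 140.7 ± 5.81 FPKM (SD, n = 3 each), with overlapping groups.

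In the inner ear, harmonin works with another set of cadherins and myosins, whose loss causes Usher syndrome. A list of 14 held such genes, relatives of them and other cadherins, CDHR3 and CDH17 among them. Of the 14, 4 were tested, CDHR3 included, with 1 higher, 0 lower and 3 not passing (median log2 change 0.10). Across all tested genes 3.4 percent were called higher and 1.39 percent lower. PDZD7, a PDZ scaffold related to harmonin, gave 1.77, 1.47 and 1.70 FPKM in the controls, against 3.22, 2.75 and 3.36 FPKM with overexpression (limma log2 change 0.64, adjusted p = 0.0129, lost at 0.0525 without HNF4A overexpression replicate 1 and at 0.0872 without the expression filter). The myosin-7b relative MYO7A stayed between 0.0325 and 0.066 FPKM, and PCDH15, an inner ear cadherin, was listed at 0 in all 6 libraries. PDZD7, CIB2, WHRN and ADGRV1 were higher without overlap, and in the rest of the list the groups overlapped. CIB2 did not pass (limma adjusted p = 0.3249). WHRN and ADGRV1, under the filter, did not pass over all 32006 genes (limma adjusted p = 0.2645 and 0.3197), where 9.95 percent were higher without overlap. Of 6 markers of cochlear or retinal sensory cells, 1 was tested, GFI1, at 2.27 ± 0.0779 and 3.06 ± 0.205 FPKM (SD, n = 3 each, limma adjusted p = 0.0997), and ATOH1 was at 0 throughout. The summed level of these 6 markers was 2.24 to 2.46 FPKM in control and 3.01 to 3.43 FPKM in overexpression, and the part of such cells in the result was not tested.

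Membrane proteins and signalling partners that NHERF scaffolds are known to bind numbered 27, with 16 tested, 3 higher, 0 lower and 13 not passing (median log2 change 0.0030). The shares over all tested genes were 3.4 percent higher and 1.39 percent lower. SLC15A1, the peptide transporter PEPT1, gave 0.368, 0.281 and 0.246 FPKM in the controls, against 1.55, 1.15 and 1.498 FPKM with overexpression (limma adjusted p = 0.00601), and like PDZK1 it met the filter only through the overexpression libraries. SGK1, a serum-induced kinase, rose 2.58-fold (adjusted p = 0.0361), and SCARB1 rose 1.198-fold (adjusted p = 0.0412). SGK1 kept its call only without HNF4A overexpression replicate 2, and SCARB1 in no leave-one-out fit (0.0694 to 0.131). SLC9A3, the sodium-proton exchanger NHE3 after which the NHERF proteins are named, gave 3.55, 3.18 and 2.62 FPKM in the controls, against 3.51, 3.32 and 2.86 FPKM with overexpression, with overlapping groups. CFTR was listed at 0 in 5 libraries and GUCY2C stayed under 0.03 FPKM in all 6.

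No gene was called among the other PDZ scaffolds tested. Of 28 scaffolds of epithelial polarity and trafficking 24 were tested, with 0 higher and 0 lower by limma at the adjusted threshold and 5 at an unadjusted p under 0.05, which 18.0 percent of all tested genes reached (median log2 change -0.02). TAX1BP3 and PDZD11, the most abundant, were at 107.5 ± 3.02 and 101.6 ± 6.56 FPKM and at 79.7 ± 0.166 and 79.1 ± 2.63 FPKM (SD, n = 3 each). Of 17 apical trafficking genes 16 were tested, with 0 called by limma in either direction and 3 at an unadjusted p under 0.05, against the same 18.0 percent (median log2 change 0.01). VAMP8, a vesicle SNARE, and the small GTPase gene RAB11A, the most abundant of these, had adjusted p-values of 0.214 and 0.484.

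**Figure D4:**
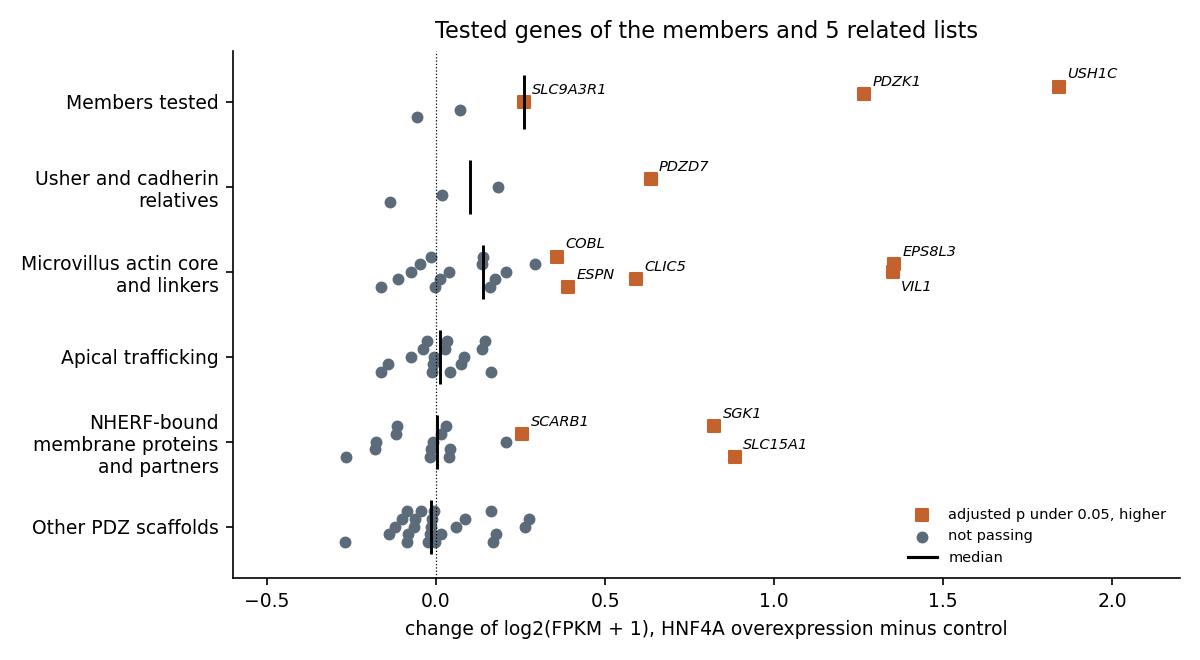
Change of log2(FPKM + 1), HNF4A overexpression minus control, for the tested genes of the 10 members and of 5 related lists, with 1 point per gene. Orange squares are genes called higher, grey circles genes that did not pass, and vertical lines the median of each row. USH1C, PDZK1, VIL1 and EPS8L3 lie above 1, and the apical trafficking and other PDZ scaffold rows hold no called gene.

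Epithelial markers were present, with EPCAM at 172.7 to 182.3 FPKM and KRT8 at 1972 to 2403 FPKM. The intestinal markers KRT20, CDX1 and CDH17 were below 0.2 FPKM throughout, while the intestinal transcription factor gene CDX2 was at 16.5 to 21.7 FPKM in control and 21.8 to 28.8 FPKM in overexpression (limma adjusted p = 0.110). The keratin genes KRT18 and KRT19 were lower in every overexpression library than in any control library, with ratios of means of 0.844 and 0.879, and did not pass (limma adjusted p = 0.0956 and 0.140). EPCAM, CDX2, VIL1 and CDH1 were higher without overlap. Among all tested genes 10.1 percent were lower without overlap and 13.8 percent higher without overlap. Of 10 epithelial markers 7 were tested, and VIL1 and the E-cadherin gene CDH1 were higher, 0 were lower and 5 did not pass. VIL1 is also among the microvillus core genes above, so its call is counted in both lists. KRT20 and CDH17, not tested, are shared with the apical trafficking list and the Usher and cadherin list. The shares over all tested genes were 3.4 percent higher and 1.39 percent lower. Fibroblast markers summed to 2.18 to 2.90 and 3.43 to 3.63 FPKM, nearly all of it COL1A1 (2.18 ± 0.331 and 3.06 ± 0.228 FPKM, SD, n = 3 each, without overlap, limma adjusted p = 0.117), with DCN at 0 in 5 libraries. Endothelial markers summed to at most 0.239 and 0.411 FPKM, with CDH5 at 0 in all 6. The 6 leukocyte markers summed to 0.753 to 1.21 FPKM in control and 2.89 to 3.04 FPKM in overexpression. The difference was nearly all CD68, a lysosomal protein gene (0.582 ± 0.196 to 2.74 ± 0.147 FPKM, SD, n = 3 each, limma adjusted p = 0.00160), which met the filter only through the overexpression libraries. PTPRC was listed at 0 in 4 libraries and TYROBP in all 6. The part of fibroblasts, endothelial cells or leukocytes in the results was not tested.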

How the data were processed

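The authors deposited 1 table of FPKM values for 6 libraries, in 60694 rows, beside group means of FPKM, fold changes and p-values that were not used. According to the submitters' processing notes, the tools included Bowtie and Bowtie2, TopHat and TopHat2, Cufflinks and FastQC, with build hg38. Their versions and roles, the annotation and the use of strand were not stated. FPKM keeps no counts, so absolute depth is unknown and no counting interval was computed. Values shift with the assumed transcript length and the library total.

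Columns were matched to samples by title. For a repeated symbol, the row of highest mean FPKM was used. limma 3.58.1 in R 4.3.3 (lmFit, eBayes with trend, group as the only term) was run on log2(FPKM + 1) for 14106 genes with at least 1 FPKM in at least 3 libraries, with Benjamini-Hochberg adjustment over all of them. Leave-one-out fits kept this gene set. Genes under the filter and ratios were tested with exact two-sided permutation tests in scipy 1.17.1. P-values set the difference between the groups against the spread between the 3 biological replicates of each. In limma that spread also draws on the other tested genes. The fit was tested on simulated data.

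The members and gene lists were chosen with earlier results of these data known. Named genes were all 10 members, up to 4 passing genes per list by size of change (or the 2 most abundant where none passed) and the 5 nearest to USH1C. COBL, EZR, SLC9A3, MYO7A, PCDH15, CFTR, GUCY2C, HNF4G, MYO1A, BAIAP2L2, PDZK1P1, the named marker genes and the motifs were added afterwards. So were CDHR3, CIB2, WHRN, ADGRV1 and MYO1C. Alternatives were other pseudocounts, filters and scalings, no trend, summed rows, a replicate block and leaving out each library.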

Additional observations from a re-analysis of the deposited data

How the results depend on the processing

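USH1C and PDZK1 kept their direction and call in all 15 alternatives, with log2 changes of 1.71 to 2.08 and 1.15 to 3.16. SLC9A3R1 kept its direction in all 15 and its call in 8. The number of members called higher was 2 or 3 in each, and 0 were called lower. CALML4 and SLC9A3R2, neither called, changed sign without control replicate 1, with leave-one-out log2 changes of -0.034 to 0.14 and of -0.095 to 0.00186. Control replicate 1 was the lowest control for CALML4 (2.24 FPKM) and the highest for SLC9A3R2 (15.5 FPKM). Why it stood apart was not tested. With FPKM + 0.1 the difference in the PDZK1 to SLC9A3R1 ratio was 2.44, and 2.69 to 3.21 without 1 library. Leaving out 1 library left 274 to 313 genes higher and 87 to 161 lower, and testing without a filter left 201 and 49 of 32006, against 480 and 196. The median log2 change of all tested genes lay between -0.011 and 0.016 under every setting.

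Same-numbered libraries of the groups share only a number: their deviations correlated at 0.139, 0.0914 and 0.15, each higher than with any other number, a hint from the data and not from the design. With the replicate number as a block, 638 genes were higher and 399 lower, and 3 of the 10 members higher. At levels below about 0.5 FPKM, as for CDHR2, CDHR5, MYO7B and PDZD3, the spread between libraries and the unknown depth limit what can be seen. The PDZK1 controls lie in this range too, so its ratio of group means rests on a low control level.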

Other observations

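The 2 microvillus core genes under the expression filter were looked at after their values were seen. MYO1A encodes the brush border myosin-1a that links the microvillus core to the membrane. It was listed at 0.015, 0.103 and 0.134 FPKM in control and at 0.418, 0.848 and 0.19 FPKM in overexpression. Its groups did not overlap, and over all 32006 genes above 0 it did not pass (limma adjusted p = 0.386). BAIAP2L2, of the I-BAR family of membrane-bending proteins, was listed at 0.156, 0.188 and 0.126 FPKM in control and at 0.674, 0.69 and 0.752 FPKM in overexpression. Its groups did not overlap either, and in the same fit it was called higher (limma adjusted p = 0.0209). Of those 32006 genes 9.95 percent were higher without overlap and 0.628 percent were called higher.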
